A study of Anopheles coluzzii and Anopheles merus with 32 samples.

Results

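Antimicrobial peptides and lysozymes are secreted effectors of insect immunity, and 8 of their genes were followed here by identifier in larvae of 2 malaria mosquitoes. They are the cecropins AGAP000692, AGAP000693 and AGAP000694, defensin 1 (AGAP011294), gambicin (AGAP008645) and the c-type lysozymes AGAP007347, AGAP007343 and AGAP007385. Of the 8, 7 were rows of the table of 11025 genes used here, and AGAP011294 was not analysed here. The table pairs no identifier with a name, so the names are the annotations by which the 8 identifiers were listed.

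The series title sets Anopheles merus, as euryhaline, against Anopheles coluzzii, as stenohaline, that is, tolerant of a wide or a narrow range of salinity. Larvae of both species were reared in freshwater (FW) and moved at 66 h or 18 h after hatching, for 6 h, into saltwater (SW) or FW. The 8 groups were therefore An. merus at 66 h in SW and in FW, An. merus at 18 h in SW and in FW, and the same 4 groups of An. coluzzii. Each group had 4 libraries, 32 in all, and each library was made from whole bodies of a pool of 35 to 50 larvae. Neither the strains nor the salinity of the SW were stated in the labels. The labels also do not say whether larvae for different pools were reared apart, so each p-value reflects variation among libraries, which may be technical. In whole larvae, fewer cells of a type and less RNA per cell cannot be told apart.

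Cecropins and defensins are short peptides that damage microbial membranes, and gambicin is an antimicrobial peptide found in mosquitoes. Lysozymes of the c-type cleave the peptidoglycan of bacterial cell walls, and some insect lysozymes also serve in digestion. In insects such genes are expressed in fat body, hemocytes and the linings of the gut and other surfaces, and many answer to microbes through the Toll and IMD pathways. The design of the study asks how salinity affects mRNA levels, with no infection applied.

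Levels are read counts relative to library size, as CPM, scaled by the authors with TMM factors, which set the bulk of genes equal between libraries. Library depth was 3769859 to 16633623 reads. The members rested on few reads, from 196 for AGAP007343 to 4837 for AGAP000693 over all 32 libraries, and reads were counted without molecular identifiers, so intervals on them cover counting error only. In the tests, 5 of the 7 genes passed a minimum mean of 1 CPM over all libraries. AGAP000694 and AGAP007343, with means of 0.689 and 0.609 CPM, did not, and their tests come from the same model fitted without that minimum. Fold changes are log2 of CPM + 1, with SE, which understates changes of genes this low. A gene was called at a Benjamini-Hochberg adjusted p below 0.05 in limma, adjusted over all genes tested. No gene lengths or sequences were at hand, so levels were not compared between genes, and reads shared between copies of the cecropin or lysozyme genes could not be examined.

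A few libraries stood apart, over all genes tested or in the members. In the An. coluzzii 18 h FW group, replicates 1 and 2 resembled each other (SD of the log2 difference over all genes tested 0.346), as did replicates 3 and 4 (0.324). Pairs across them differed by 0.485 to 0.56. Wide pairs were not confined to this group, with 0.413 to 0.698 in An. coluzzii at 18 h in SW. Replicate 3 of An. merus at 66 h in FW had the highest value of its group in the cecropins, gambicin and AGAP007347. Replicate 3 of An. coluzzii at 66 h in FW was likewise the highest of its group in AGAP000693, AGAP000694, gambicin and AGAP007343. What set these libraries apart was not tested. Results that lose their call without a single library are named as such, and so are results that changed without An. coluzzii 18 h FW replicates 1 and 2.

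Under SW, An. merus changed one cecropin and one lysozyme upward and another cecropin and another lysozyme downward at 18 h. Of the 5 genes tested at that age, AGAP000693 rose and AGAP000692 and AGAP007347 fell, while 51.7% of all 10505 genes were called in either direction. At 66 h, AGAP000693 rose and AGAP007347 fell, and the other 3 were not called, against 57.2% of all genes. With 5 genes, these counts do not set the members apart from all genes at either age. At 66 h the count was 3 with a pseudocount of 4. The median log2 fold change of the 5 genes was -0.53 at 18 h and 0.25 at 66 h, and that of all genes was -0.02 and -0.06. In An. coluzzii none of the 5 was called at either age by limma fitted to all 32 libraries (1, gambicin at 66 h, in a fit of the compared libraries alone), where 8.25% of all genes were called at 18 h and 2.24% at 66 h. At an unadjusted p below 0.05 there was 1 gene at each age, AGAP007347 at 18 h and gambicin at 66 h, and edgeR on the recovered reads called 0 of the 5 at either age, with 7.05% and 2.08% of all genes called by edgeR at 18 h and 66 h. The median of the 5 was -0.08 at 18 h and -0.06 at 66 h in that species.

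**Figure D1:**
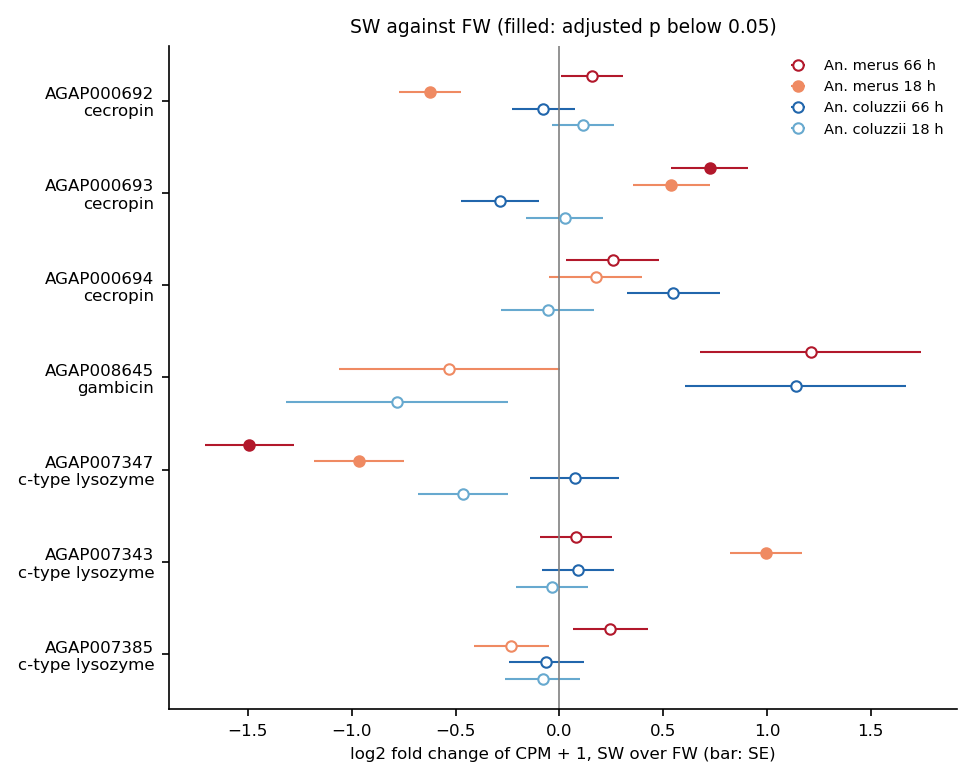
Log2 fold change of CPM + 1 (x axis, SW over FW, bars are SE from limma) for each gene (y axis) in both species at both ages, with filled points called at an adjusted p below 0.05. AGAP000694 and AGAP007343 come from the fit without a minimum level. The filled points are those of An. merus, with AGAP007347 at -1.49 and -0.96 and AGAP007343 at 0.996 at 18 h.

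AGAP000693 was the cecropin with the most reads, and it was higher under SW in An. merus at both ages. At 66 h it stood at 36.4, 24.8, 32.1 and 33.2 CPM in SW libraries and at 19.8, 13.6, 26.4 and 16.6 CPM in FW libraries, a log2 fold change of 0.72 ± 0.19 (adjusted p = 0.00151). All but the lowest SW library lay above the FW libraries. At 18 h it stood at 26.6, 20.2, 20.9 and 24.4 CPM in SW and at 16, 11.2, 14.9 and 21.1 CPM in FW, a log2 fold change of 0.54 ± 0.19 (adjusted p = 0.0163), again with overlap. The call at 18 h was lost without FW replicate 2 (adjusted p = 0.091), without SW replicate 1 (0.0528) and with every library rescaled to the same sum (0.129). An. coluzzii larvae of 66 h averaged 9.75 ± 0.911 CPM of this gene in SW and 12.6 ± 4.77 CPM in FW, and larvae of 18 h averaged 9.05 ± 0.951 CPM in SW and 8.84 ± 0.243 CPM in FW (mean ± SD, n = 4), with adjusted p of 0.475 and 0.95.

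AGAP000692, a cecropin with the neighbouring identifier, was lower under SW in young An. merus, where AGAP000693 was higher. At 18 h its values were 1.75, 1.61, 1.62 and 1.45 CPM in SW and 3.28, 2.96, 3.97 and 2.07 CPM in FW. The groups did not overlap, as was so for 50.3% of the 10505 genes in that comparison, and the log2 fold change was -0.62 ± 0.15 (adjusted p = 0.000936). At 66 h the SW libraries held 5.53, 4.80, 6.10 and 6.35 CPM and the FW libraries 4.71, 4.47, 7.39 and 3.87 CPM, with an adjusted p of 0.379. AGAP000694, the third cecropin, stood at 1.23 ± 0.549 CPM in SW and 0.858 ± 0.396 CPM in FW in An. merus at 66 h. Larvae of 18 h averaged 0.971 ± 0.286 CPM in SW and 0.735 ± 0.122 CPM in FW, on 24 to 48 reads per group. Its adjusted p was 0.346 and 0.548. In An. coluzzii at 66 h its SW values were 0.371, 0.752, 2.72 and 0.608 CPM and its FW values 0, 0.253, 0.721 and 0.458 CPM (adjusted p = 0.219), and the high SW mean rested on replicate 3.

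Gambicin (AGAP008645) varied widely between libraries in several groups. None of its responses to SW was called by limma fitted to all 32 libraries with a pseudocount of 1. At 66 h in An. merus it stood at 27.9, 17.2, 21.7 and 51.9 CPM in SW and at 21.6, 5.78, 25.1 and 4.54 CPM in FW. The FW libraries fell into a high and a low pair, and the log2 fold change of 1.21 ± 0.53 had an adjusted p of 0.0548. That value was 0.0271 and 0.0191 without FW replicates 1 and 3, 0.0405 without SW replicate 2, and 0.02 with a pseudocount of 4. In An. coluzzii at 66 h gambicin stood at 12.3, 9.52, 11.8 and 12.4 CPM in SW and at 4.36, 4.05, 7.57 and 3.39 CPM in FW. These groups did not overlap, which 11.2% of all genes shared in that comparison, and the log2 fold change was 1.14 ± 0.53. Its adjusted p was 0.3 with the spread pooled over all 8 groups and 0.0194 in a fit of these 8 libraries alone. Young An. merus held little of it, at 0.45 ± 0.401 CPM in SW and 1.07 ± 0.42 CPM in FW at 18 h (called in a fit of these 8 libraries alone, adjusted p = 0.0446). In An. coluzzii at 18 h the SW libraries held 1.15, 0.592, 1.23 and 0.426 CPM and the FW libraries 0.147, 0.567, 12.2 and 3.02 CPM, so that the FW mean rested on replicates 3 and 4 (log2 fold change -0.78 ± 0.53, adjusted p = 0.358).

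**Figure D2:**
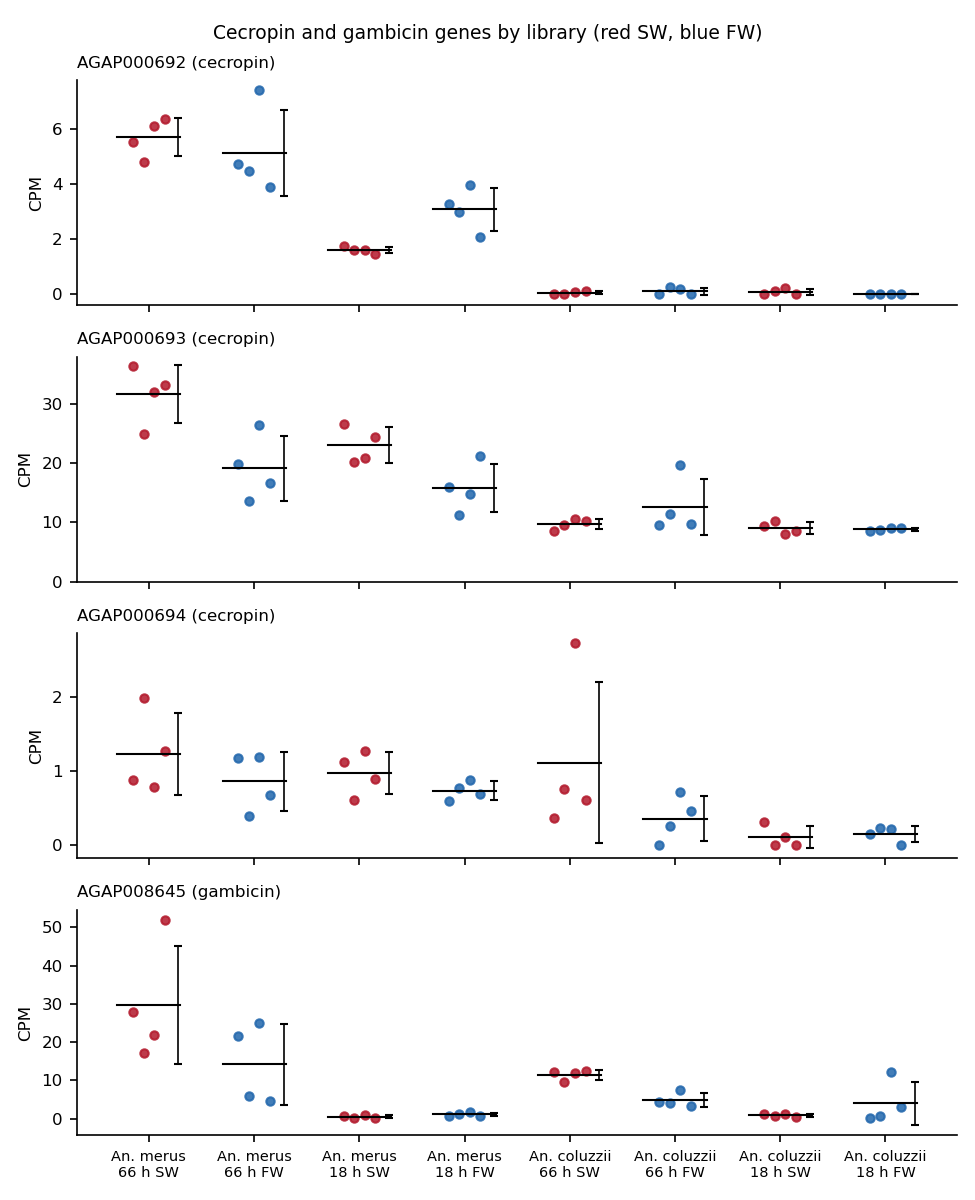
CPM (y axis, TMM-scaled) of the 3 cecropins and gambicin in each of the 32 libraries (points), with group means (lines) and SD (bars, n = 4), by species, age and water (x axis). AGAP000692 lies between 1.45 and 7.39 CPM in An. merus and at or below 0.253 CPM in An. coluzzii, and gambicin spreads from 4.54 to 25.1 CPM within the An. merus 66 h FW group.

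Among the lysozymes, AGAP007347 fell under SW in An. merus at both ages, with no overlap between SW and FW libraries at either, which held for 49.9% of all genes tested at 66 h and 50.3% at 18 h. At 66 h it stood at 0, 0.496, 0.665 and 0.726 CPM in SW, on 13 reads in all, and at 3.11, 2.77, 4.10 and 2.42 CPM in FW, on 145 reads. The SW mean was 0.152 of the FW mean, and the log2 fold change was -1.49 ± 0.22 (adjusted p = 1.07e-06). At 18 h it stood at 2.07, 1.30, 1.21 and 1.70 CPM in SW and at 2.78, 6.44, 3.53 and 3.79 CPM in FW, a log2 fold change of -0.96 ± 0.22 (adjusted p = 0.000445). Both calls held under every alternative tried, and with each library of these groups left out. An. coluzzii larvae of 66 h averaged 1.86 ± 0.67 CPM in SW and 1.68 ± 0.372 CPM in FW (adjusted p = 0.906), and those of 18 h averaged 2.36 ± 0.726 CPM in SW and 3.62 ± 0.858 CPM in FW (log2 fold change -0.46 ± 0.22, adjusted p = 0.165).

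AGAP007343, whose identifier lies close to that of AGAP007347, moved the other way in young An. merus. At 18 h it stood at 1.91, 0.841, 1.73 and 1.37 CPM in SW, on 70 reads, and at 0.0993, 0.386, 0.294 and 0.115 CPM in FW, on 7 reads. Every SW library lay above every FW library, in a comparison where 50.3% of all genes tested had no overlap. The log2 fold change was 0.996 ± 0.17 in the fit without a minimum level (adjusted p = 2.06e-05), in which 50.1% of 11025 genes were called, and edgeR on the reads gave 2.69 (adjusted p = 0.000187). At 66 h An. merus had 4 reads of it in SW and 5 in FW, with 95% exact intervals of 0.0397 to 0.373 CPM in SW and 0.0352 to 0.253 CPM in FW on the pooled reads (log2 fold change 0.08 ± 0.17, adjusted p = 0.722). An. coluzzii larvae of 66 h averaged 1.09 ± 0.435 CPM in SW and 0.961 ± 0.342 CPM in FW, and those of 18 h averaged 0.407 ± 0.201 CPM in SW and 0.449 ± 0.265 CPM in FW, with adjusted p of 0.857 and 0.928.

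AGAP007385, the third lysozyme, was not called under SW in any group. An. merus larvae of 66 h averaged 1.97 ± 0.485 CPM in SW and 1.49 ± 0.248 CPM in FW, and those of 18 h averaged 2.01 ± 0.333 CPM in SW and 2.53 ± 0.26 CPM in FW (adjusted p = 0.254 and 0.297). An. coluzzii larvae of 66 h averaged 5.35 ± 0.498 CPM in SW and 5.75 ± 1.52 CPM in FW, and those of 18 h averaged 1.42 ± 0.587 CPM in SW and 1.55 ± 0.62 CPM in FW (adjusted p = 0.906 and 0.816).

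**Figure D3:**
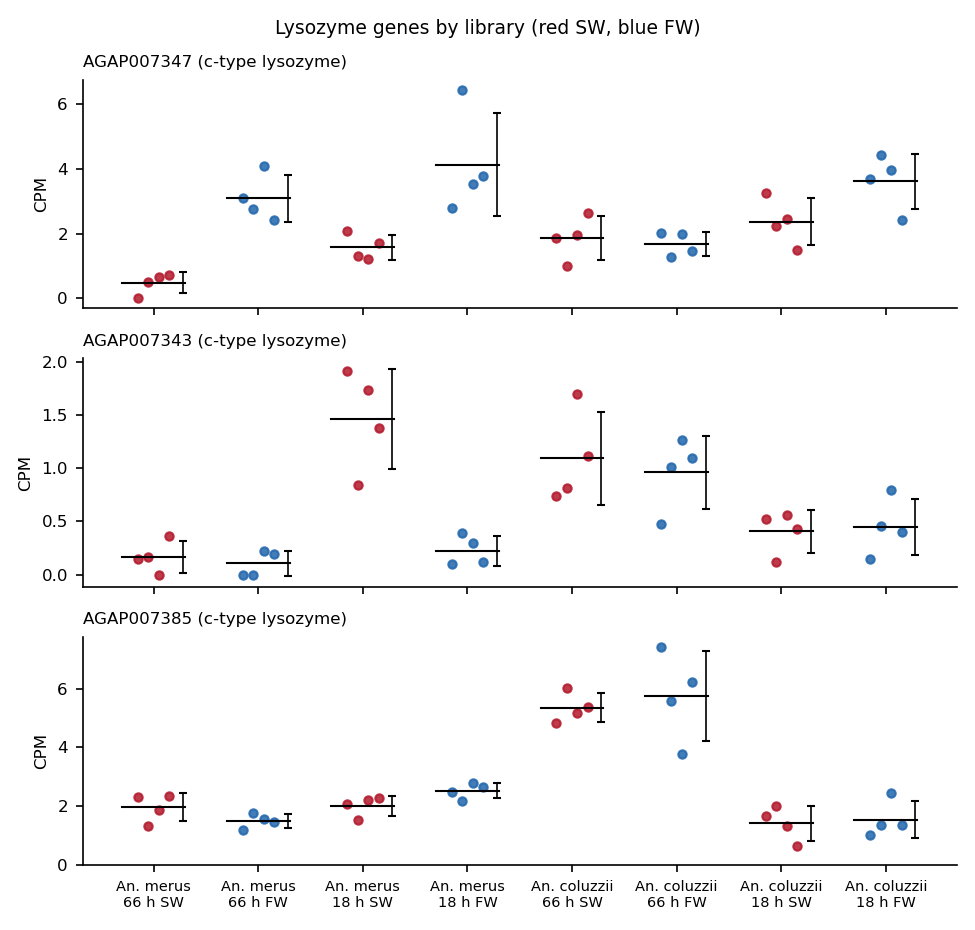
CPM (y axis, TMM-scaled) of the 3 lysozymes in each of the 32 libraries (points), with group means (lines) and SD (bars, n = 4), by species, age and water (x axis). AGAP007347 is at or below 0.726 CPM in An. merus at 66 h in SW, AGAP007343 is highest in An. merus at 18 h in SW at a mean of 1.46 CPM, and AGAP007385 is highest in An. coluzzii at 66 h.

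Whether the species answered SW differently was tested by the interaction of species and water, taken as An. merus minus An. coluzzii. At 66 h it was called for AGAP007347, at -1.57 ± 0.30 (adjusted p = 0.000242), and for AGAP000693, at 1.01 ± 0.26 (adjusted p = 0.00388), with 32.1% of all genes called. Both held under the alternatives tried. At 18 h it was called for AGAP000692, at -0.74 ± 0.21 (adjusted p = 0.0128), with 21% of all genes called. AGAP000692 had 3 reads in SW and 0 reads in FW in An. coluzzii at that age, so this value says little of that species. AGAP007343 had an interaction of 1.03 ± 0.24 at 18 h in the fit without a minimum level (adjusted p = 0.00297), where 20.3% of genes were called. AGAP007347 and AGAP000693, called under SW at 18 h in An. merus alone, had interactions of -0.50 ± 0.30 and 0.51 ± 0.26 at that age. Neither interaction was called (adjusted p = 0.263 and 0.174). Gambicin had adjusted p of 0.955 at 66 h and 0.859 at 18 h. The interactions share their libraries with the SW comparisons and are not independent of them.

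Whether the response depended on age was tested as the change at 66 h minus the change at 18 h. In An. merus it was called for AGAP000692, at 0.78 ± 0.21 (adjusted p = 0.0138), where 13.3% of all genes were called, but edgeR gave an adjusted p of 0.0688. AGAP007343 stood at -0.92 ± 0.24 in the fit without a minimum level (adjusted p = 0.0125, with 12.8% of genes called), and edgeR gave 0.221. In An. coluzzii 0 of the 5 genes were called by limma and 0 by edgeR, with 0.0762% of all genes called by limma and 0.0381% by edgeR. Gambicin, the 1 gene of the 5 at an unadjusted p below 0.05 there, had a value of 1.92 ± 0.75 and an adjusted p of 0.439.

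The species difference was clearest in AGAP000692. It had 577 reads over the 16 An. merus libraries and 7 over the 16 An. coluzzii libraries, of which 10 had no read. In FW at 66 h An. merus held 4.71, 4.47, 7.39 and 3.87 CPM and An. coluzzii 0, 0.253, 0.180 and 0 CPM. The log2 fold change there was 2.44 ± 0.15 (adjusted p = 6.1e-14), and the ratio of pooled CPM was 75.6 (95% exact interval 20.7 to 628). In FW at 18 h An. merus was at least 44.8-fold higher, as its pooled CPM over the 3 reads that a count of 0 over the An. coluzzii group allows, which is a floor and not an interval like those beside it (log2 fold change 2.0 ± 0.15, adjusted p = 5.57e-12). Under SW the ratio of pooled CPM was 123 at 66 h (33.5 to 1024) and 16.8 at 18 h (5.53 to 83), with log2 fold changes of 2.67 ± 0.15 and 1.27 ± 0.15. Whether reads of the species map equally well to this gene model was not tested. The gene passed the minimum level through An. merus, so a difference between species was built into its being tested.

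The other cecropins were also higher in An. merus in part of the comparisons. AGAP000693 was higher in An. merus in all 4, with log2 fold changes of 1.59 ± 0.19 and 1.25 ± 0.19 in SW at 66 h and 18 h, and of 0.58 ± 0.19 and 0.74 ± 0.19 in FW. The FW difference at 66 h was lost without An. merus replicate 3 (adjusted p = 0.0637), in a fit of those 8 libraries alone (0.077) and with every library rescaled to the same sum (0.0748). AGAP000694 was higher in An. merus at 18 h, at 0.971 ± 0.286 CPM in An. merus and 0.107 ± 0.149 CPM in An. coluzzii in SW (adjusted p = 0.00219), and at 0.735 ± 0.122 CPM in An. merus and 0.148 ± 0.104 CPM in An. coluzzii in FW (adjusted p = 0.0294). The An. coluzzii values rested on 4 reads in SW and 6 in FW. In the fit without a minimum level, 59.5% of genes were called in SW and 46.4% in FW at this age. The FW call was lost without any of 4 libraries in turn, An. merus replicates 2 and 3 and An. coluzzii replicates 1 and 4 (adjusted p from 0.0507 to 0.0767). At 66 h its adjusted p was 0.535 in SW, and 0.0324 without the high replicate 3 of An. coluzzii. In FW it was 0.0912, and 0.0469 without An. coluzzii replicate 3 or 0.043 without An. merus replicate 2.

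**Figure D4:**
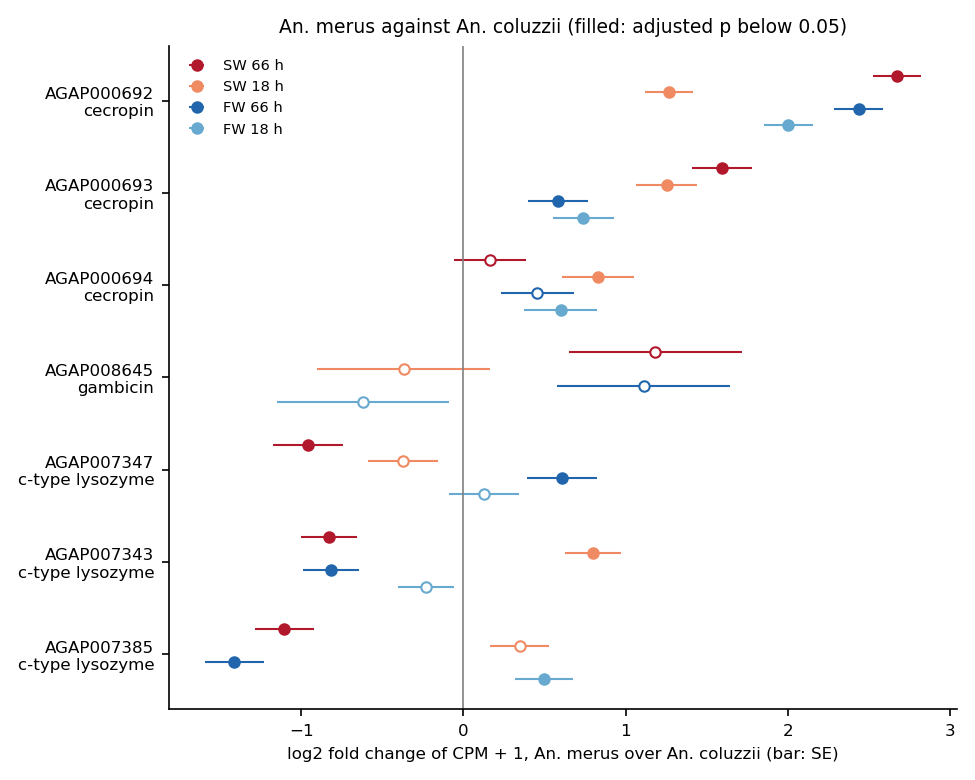
Log2 fold change of CPM + 1 (x axis, An. merus over An. coluzzii, bars are SE from limma) for each gene (y axis) in both waters at both ages, with filled points called at an adjusted p below 0.05. AGAP000694 and AGAP007343 come from the fit without a minimum level. The 2 cecropins AGAP000692 and AGAP000693 lie right of 0 in all 4 comparisons, between 0.58 and 2.67, and AGAP007385 lies at -1.41 and -1.11 at 66 h and right of 0 at 18 h.

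The lysozymes were mostly lower in An. merus at 66 h. AGAP007385 stood at 1.18, 1.77, 1.57 and 1.45 CPM in An. merus and at 7.43, 5.57, 3.79 and 6.22 CPM in An. coluzzii in FW at that age, without overlap, as for 43.9% of all genes tested (log2 fold change -1.41 ± 0.18, adjusted p = 2.07e-07). In SW at 66 h it stood at 2.33, 1.32, 1.89 and 2.36 CPM in An. merus and at 4.83, 6.01, 5.18 and 5.37 CPM in An. coluzzii (-1.11 ± 0.18, adjusted p = 4.55e-06). AGAP007343 was lower in An. merus at 66 h in both waters, on 4 and 5 reads in An. merus and 48 and 27 in An. coluzzii in SW and FW (adjusted p = 0.000119 and 0.000254, in the fit without a minimum level, where 66.8% and 50.7% of genes were called). At 18 h in SW it was higher in An. merus, at 1.46 ± 0.471 CPM in An. merus and 0.407 ± 0.201 CPM in An. coluzzii (0.80 ± 0.17, adjusted p = 0.000221).

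AGAP007347 changed the sign of its species difference with water at 66 h. In SW it was lower in An. merus, at 0.472 ± 0.329 CPM in An. merus and 1.86 ± 0.67 CPM in An. coluzzii (log2 fold change -0.96 ± 0.22, adjusted p = 0.000284). In FW it was higher, at 3.10 ± 0.726 CPM in An. merus and 1.68 ± 0.372 CPM in An. coluzzii (0.61 ± 0.22, adjusted p = 0.0197). The FW call was lost without An. merus replicate 3 (adjusted p = 0.076), without An. coluzzii replicate 2 (0.0606) and with every library rescaled to the same sum (0.0851). At 18 h its adjusted p was 0.135 in SW, or 0.0172 with every library rescaled to the same sum, and 0.667 in FW.

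Gambicin was higher in An. merus at 66 h by 1.18 ± 0.53 in SW and 1.11 ± 0.53 in FW on the log2 scale, values that missed the threshold (adjusted p = 0.0524 and 0.084) and passed it in edgeR (0.0411 and 0.0434). In SW the groups did not overlap, as for 62.1% of all genes tested, and in FW they did. A fit of the 8 SW libraries alone gave an adjusted p of 0.00575. With single libraries left out, the adjusted p ran from 0.0372 to 0.175 in SW and from 0.0287 to 0.275 in FW. In FW at 18 h the difference was -0.62 ± 0.53 (adjusted p = 0.363), and edgeR called it at -2.07 (adjusted p = 0.0435). Without An. coluzzii replicates 1 and 2 it was -1.84 (adjusted p = 0.00591), and without replicate 3 it was 0.073, so it rested on single libraries. Across the 5 genes tested, 4 differed between species at 66 h in SW and 4 at 66 h in FW, where 67.3% and 51% of all genes did. At 18 h it was 2 in SW and 3 in FW, against 60.3% and 46.8%. With 5 genes, these counts do not set the members apart from all genes. Each count includes AGAP000692, which passed the minimum level through An. merus. The count at 66 h in FW was 2 with every library rescaled to the same sum. The third call at 18 h in FW was AGAP007385, at 2.53 ± 0.26 CPM in An. merus and 1.55 ± 0.62 CPM in An. coluzzii (0.50 ± 0.18, adjusted p = 0.0257). It was lost with each of 5 single libraries left out, An. merus replicates 3 and 4 and An. coluzzii replicates 1, 2 and 4 (adjusted p from 0.052 to 0.099), without An. coluzzii replicates 1 and 2 together (0.286) and with every library rescaled to the same sum (0.0605).

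Age was compared in FW. In An. merus gambicin was 13.4 times as high at 66 h, at 21.6, 5.78, 25.1 and 4.54 CPM, as at 18 h, at 0.794, 1.16, 1.62 and 0.690 CPM (log2 fold change 2.58 ± 0.53, adjusted p = 0.000217). An. coluzzii averaged 4.84 ± 1.86 CPM at 66 h and 3.98 ± 5.61 CPM at 18 h (log2 fold change 0.85 ± 0.53, adjusted p = 0.174, and 0.00475 without 18 h replicate 3). Without 18 h replicates 1 and 2 the log2 fold change in An. coluzzii was -0.37 (adjusted p = 0.581), and with edgeR it was 0.12 (adjusted p = 0.898). The difference between the species in this age effect was 1.73 ± 0.75 (adjusted p = 0.202), and 0.0498 in edgeR. Without An. coluzzii 18 h replicates 1 and 2 it was 2.95 (adjusted p = 0.0117). In SW, where age was not tested, gambicin held 17.2 to 51.9 CPM at 66 h and 0.0765 to 0.924 CPM at 18 h in An. merus, and 9.52 to 12.4 CPM and 0.426 to 1.23 CPM in An. coluzzii.

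AGAP007385 went with age in opposite directions in the species. In An. coluzzii it rose, to 5.75 ± 1.52 CPM at 66 h, against 1.55 ± 0.62 CPM at 18 h (log2 fold change 1.41 ± 0.18, adjusted p = 1.18e-07). In An. merus it fell, to 1.49 ± 0.248 CPM at 66 h, against 2.53 ± 0.26 CPM at 18 h (-0.50 ± 0.18, adjusted p = 0.0212). The fall was lost without 66 h replicate 1 (adjusted p = 0.0661) or 18 h replicate 3 (0.0532). The interaction of species and age was -1.91 ± 0.26 (adjusted p = 9.89e-06), and 5.36% of all genes were called for it.

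The other members called with age in FW were a lysozyme and a cecropin, with another lysozyme in the fit without a minimum level. AGAP007347 fell in An. coluzzii, to 1.68 ± 0.372 CPM at 66 h, against 3.62 ± 0.858 CPM at 18 h (-0.78 ± 0.22, adjusted p = 0.00273, and 0.0516 without 18 h replicates 1 and 2). AGAP000692 rose in An. merus, to 5.11 ± 1.56 CPM at 66 h, against 3.07 ± 0.79 CPM at 18 h (0.58 ± 0.15, adjusted p = 0.0019), a call lost with every library rescaled to the same sum (0.358). AGAP007343 rose in An. coluzzii, to 0.961 ± 0.342 CPM at 66 h, against 0.449 ± 0.265 CPM at 18 h, in the fit without a minimum level (adjusted p = 0.0314, with 57.7% of genes called), and edgeR gave 0.118. That call was lost without any of 5 libraries in turn, 66 h replicates 2, 3 and 4 and 18 h replicates 1 and 4 (adjusted p from 0.057 to 0.129). AGAP000693 in An. coluzzii, at 12.6 ± 4.77 CPM at 66 h and 8.84 ± 0.243 CPM at 18 h, was not called by limma and was called by edgeR (adjusted p = 0.0465). In all, 3 of the 5 genes tested were called in An. merus and 2 in An. coluzzii, where 50.8% and 58.6% of all genes were.

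Ordered by group mean, AGAP000693 was highest in An. merus at 66 h in SW and lowest in An. coluzzii at 18 h in FW, and every neighbouring pair of groups in that order overlapped. AGAP000692 parted at 2 points, An. merus at 18 h in FW from An. merus at 18 h in SW (as for 50.3% of all genes tested), and the SW group from every An. coluzzii group. Gambicin parted between the neighbours An. coluzzii at 66 h in SW, the third highest, and the same age in FW (as for 11.2% of all genes tested). Groups further apart in its order still overlapped. An. merus at 66 h in FW, the second highest, had libraries at 5.78 and 4.54 CPM, within the 3.39 to 7.57 CPM of An. coluzzii at 66 h in FW. AGAP007347 parted between An. merus at 18 h in SW and An. merus at 66 h in SW, its lowest group. AGAP007385 parted between the 2 An. coluzzii groups at 66 h and all others. In AGAP000694 and AGAP007343 all neighbours overlapped. For AGAP000692, 50.7% of all genes tested likewise did not overlap between the species in SW at 18 h. For AGAP007385 the shares at 66 h were 62.1% between the species in SW and 43.9% in FW. Between the ages of An. coluzzii in FW the share was 49.8%. For the parting of AGAP007347, and for partings from several groups at once, the share of all genes was not worked out.

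The genes did not share one pattern over the 8 groups. As a description over 8 group means of log2(CPM + 1), which share their libraries, AGAP000692 and AGAP000693 had a Pearson r of 0.875, and AGAP000693 and AGAP000694 one of 0.772. Among the lysozymes, AGAP007347 and AGAP007385 had an r of -0.209, AGAP007347 and AGAP007343 one of -0.212, and AGAP007343 and AGAP007385 one of 0.557. Of all genes tested, AGAP006339 (r = 0.993) and AGAP006681 (0.988) were most like AGAP000693. Those most like AGAP000692 were AGAP003313 (0.99) and AGAP012330 (0.989), and those most like AGAP000694 were AGAP009838 (0.957) and AGAP011944 (0.955). Gambicin was nearest to AGAP003630 (0.979) and AGAP008297 (0.973). AGAP007347 was nearest to AGAP000338 (0.983) and AGAP012046 (0.979), AGAP007343 to AGAP012775 (0.922) and AGAP005658 (0.918), and AGAP007385 to AGAP002911 (0.957) and AGAP005386 (0.953). With 8 points and 10505 genes, values this high say little of any single gene.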

How the data were processed

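Messenger RNA of whole larvae was sequenced in 32 libraries, made with polyA selection and a kit that does not mark strand, per the labels' protocols. The deposited table holds a gene-level signal, CPM scaled by the authors with TMM factors, and its name calls it filtered, by a rule that the labels leave out. The submitters' processing notes name Trimmomatic, Bowtie2, TopHat2, HTSeq and edgeR, without role or version, and no genome build. Groups were read from the labels. Replicates were numbered in accession order and pair nothing.

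Each value (100% of them) was a multiple of its library's smallest positive value, within 0.01 reads, and the reads so recovered were used in an edgeR 4.0.16 quasi-likelihood test as an alternative. In 1 An. merus 18 h FW library that smallest value lay so near a round decimal that its steps alone look like rounding, but its values carry all their decimals. Between replicates, chi-square per degree of freedom was 5.36 to 50.3 over 48 pairs, so none was taken as a library deposited again.

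log2(CPM + 1) was fitted with limma 3.58.1 (R 4.3.3) as 8 group means over 32 libraries (24 residual degrees of freedom, trend and robust moderation, two-sided, Benjamini-Hochberg over genes in each of 15 comparisons), on the 10505 genes whose mean reached 1 CPM. The fit was checked on simulated counts for SW against FW only. Changes were planted only in genes above the mean level of most members, so the check does not cover genes as low as those. Members and lists were chosen with earlier results of these data known. Genes named are the members and, for each, the 2 genes with the highest Pearson r over group means. The gene name table at hand held 0 of the 11025 identifiers, so no list of other immune genes or tissue markers was used. Alternatives were pseudocounts of 0.5 and 4, no minimum level, rescaling to the same sum, the compared libraries alone, edgeR, and libraries left out. For AGAP000694 and AGAP007343, below the minimum, they were only edgeR and single libraries left out. For edgeR without a minimum level, and for leaving out libraries in the fit without one, the choice was made after seeing the data. Figures were drawn with matplotlib 3.10.9.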

Additional observations from a re-analysis of the deposited data

Results flagged for a closer look

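Among 56 groups of 4 values (7 genes in 8 groups), 1 library lay far from the others by Dixon's test at the 95% level, where chance gives about 1 in 20. AGAP000694 stood at 2.72 CPM in An. coluzzii at 66 h in SW replicate 3, and the next highest library of that group at 0.752 CPM.

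By the interaction in limma, SW moved the species unequally at 66 h for AGAP007347 (-1.57, adjusted p = 0.000242) and AGAP000693 (1.01, adjusted p = 0.00388). At 18 h the interaction was called for AGAP007343 (1.03, adjusted p = 0.00297) and AGAP000692 (-0.74, adjusted p = 0.0128). AGAP000692 had 3 reads in SW and 0 in FW in An. coluzzii at that age, so its value says little of An. coluzzii. The SW response differed between the ages of An. merus for AGAP000692 (0.78, adjusted p = 0.0138) and AGAP007343 (-0.92, adjusted p = 0.0125). In edgeR neither was called (adjusted p = 0.0688 and 0.221). The difference with age in FW differed between the species for AGAP007385 (-1.91, adjusted p = 9.89e-06). The values of AGAP007343 come from the fit without a minimum level.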

How the results depend on the processing

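In limma, 37 results of single genes were called. Of these, 26 kept direction and call under every alternative tried for the gene and with each library left out, while 11 lost the call under at least 1. AGAP000694 and AGAP007343 were refitted only with edgeR without a minimum level and with single libraries left out. Other pseudocounts, rescaling and the compared libraries alone were not tried for them. The losses stand beside the results. Of 1705 values recomputed, 1585 kept direction and side of the threshold, 33 lost the call, 32 gained it and 55 reversed. The reversals fell on results that were not called, in either setting, and are given here on the log2 scale.

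With every library rescaled to the same sum, the reversed values were -0.049 for AGAP000692 under SW in An. merus at 66 h, -0.022 for AGAP000693 under SW in An. coluzzii at 18 h, -0.24 for AGAP000693 with age in An. merus and -0.021 in An. coluzzii, and -0.18 for gambicin in species and water at 66 h. With edgeR, with or without the minimum level, they were -1.92 for AGAP000692 in species and age, -0.22 for gambicin in species and water at 66 h and -0.01 for AGAP007385 in age and water in An. coluzzii (-0.015 with a pseudocount of 4). With edgeR and no minimum level, AGAP007343 in species and water at 66 h was 0.16. Without An. coluzzii 18 h FW replicates 1 and 2, AGAP000693 under SW in An. coluzzii at 18 h was -0.0031, AGAP007385 in species and water at 18 h was 0.038, and gambicin with age in An. coluzzii was -0.37.

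With single libraries left out, the ranges that crossed 0 were, under SW in An. coluzzii at 18 h, -0.027 to 0.074 for AGAP000693, -0.14 to 0.072 for AGAP007343 and -0.20 to 0.094 for AGAP007385. Under SW in An. coluzzii at 66 h they were -0.042 to 0.17 for AGAP007343, -0.052 to 0.24 for AGAP007347 and -0.22 to 0.054 for AGAP007385. Between species they were -1.10 to 0.073 for gambicin and -0.068 to 0.26 for AGAP007347 in FW at 18 h, and -0.0058 to 0.47 for AGAP000694 in SW at 66 h. In species and water they were -0.44 to 0.73 for gambicin at 18 h, and -0.31 to 0.44 for gambicin, -0.46 to 0.019 for AGAP000694 and -0.092 to 0.12 for AGAP007343 at 66 h. In age and water they were -0.070 to 0.18 for AGAP000694 in An. merus, and -0.0053 to 0.23 for AGAP007343 and -0.16 to 0.14 for AGAP007385 in An. coluzzii. For AGAP000694 with age in An. merus the range was -0.013 to 0.21, and for AGAP000693 in species and age it was -0.32 to 0.064.

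The number of genes called (of 5, or of 7 without the minimum level) moved by over 1.5 times as follows. Without the minimum level it was 2 in place of 1 for species and water at 18 h and for age and water in An. merus, and 4 in place of 2 between species in SW at 18 h. With edgeR it was 0 for age and water in An. merus, with or without the minimum level, and 2 in place of 1 for species and age with the minimum level. With edgeR and no minimum level it was 2 for species and water at 18 h, 5 in place of 3 between species in FW at 18 h and 4 between species in SW at 18 h. Between species in FW at 66 h it was 2 in place of 4 with every library rescaled to the same sum, and 2 to 5 with single libraries left out. For SW in An. coluzzii at 66 h it was 1 in place of 0 in a fit of those libraries alone. Without An. coluzzii 18 h FW replicates 1 and 2 it was 1 in place of 2 for age in An. coluzzii and 2 in place of 1 for species and age. Smaller moves gave, over the settings, 2 to 4 in place of 3 for SW in An. merus at 18 h, 2 to 3 in place of 2 at 66 h, 2 to 4 in place of 3 between species in FW at 18 h, 3 to 6 in place of 4 in FW at 66 h, 2 to 3 in place of 2 in SW at 18 h, 4 to 6 in place of 4 in SW at 66 h, and with age 2 to 3 in place of 3 in An. merus and 2 to 3 in place of 2 in An. coluzzii.

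Rescaling to the same sum moved the median of all genes from -0.06 to -0.26 for SW in An. merus at 66 h, from -0.02 to -0.21 at 18 h, from -0.02 to -0.41 between species in SW at 66 h and from -0.0025 to -0.46 for age in FW in An. merus, so directions are relative to the bulk of genes. No paired analysis was possible because the labels give no replicate numbers within groups. Depth limits AGAP000692 and AGAP000694 in An. coluzzii, with 7 and 72 reads over 16 libraries each, and AGAP007343 in An. merus, with 86 reads over 16 libraries.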
